A study of Mus musculus with 8 samples.

Results

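A set of 9 genes that germ cells use, most of them to handle RNA and to restrain transposons, was followed in mouse embryonic stem cells that lack the histone demethylases Jmjd1a, Jmjd1b, both or neither. The genes were Dazl, Mael, Stk31, Slc25a31, Tex19.1, Ddx4, Tdrd1, Asz1 and Piwil2. They were chosen by name, with earlier results of these data known. Shares over all measured probe sets that stand beside theirs below are therefore a description and no independent test. Every probe set with exactly 1 of these symbols in the platform's gene table was taken if its 8 array values spanned at least 0.01 on the log2 scale. They are 9 of the 18195 genes with a probe set to their symbol alone. Of 45101 probe sets on the array, 12 carried 1 of the 9 symbols, and 9 probe sets of 7 genes met the span rule. The other 3 probe sets, 1 of Tdrd1 and 2 of Asz1, were flat: Tdrd1 stood at 6.35 and Asz1 at 7.04 and 6.67 on every array, so these genes have no measured difference here. The spans of the measured probe sets began at 1.56, and none of the flat ones exceeded 9.2e-07.

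Most of these genes are off in the body's other tissues because CpG-rich promoters are methylated in the early embryo, and they come on in the germline when that methylation is erased. Dazl encodes an RNA-binding protein that promotes translation of germ cell messages. Ddx4 encodes an RNA helicase of the germ granule, the cytoplasmic body in which PIWI proteins load piRNAs, small RNAs that guide transposon silencing. Piwil2 encodes a piRNA-binding PIWI protein, Tdrd1 a Tudor-domain partner of it, Asz1 a scaffold of the granule at mitochondria, and Mael a further factor of the piRNA pathway. Stk31 encodes a Tudor-domain protein with a kinase-like domain, Tex19.1 a mammalian protein that restrains retrotransposons and is also made in pluripotent cells, and Slc25a31 the ADP/ATP carrier of germ cell mitochondria, a metabolite carrier and not itself a regulator of RNA. Jmjd1a and Jmjd1b, now named Kdm3a and Kdm3b, remove methyl groups from lysine 9 of histone H3, a mark of silent chromatin.

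The promoters of 8 of the 9 genes could be matched by symbol in RefSeq's windows of build GRCm38.p6, which run from 250 bases before to 50 bases after an annotated start. Across the table, 32851 windows had a median of 7 CpG and an upper quartile of 20. The Dazl window held 28, Mael 24, Stk31 28 and 29 in its overlapping windows, Slc25a31 22, Tex19.1 16, Ddx4 38 and Asz1 17. Tdrd1 had 20 and 25 in a pair of overlapping windows and 3 in a window farther into the gene. The E-box CACGTG, which reads the same on both strands, was found in 7 of the 11 windows, of 5 genes: those of Mael, Slc25a31 and Ddx4 and the overlapping pairs of Stk31 and Tdrd1, each pair holding 1 site that both windows cover. The third Tdrd1 window had none. Counted per window, which counts a shared site in each, it was found in 7.15% of all windows and in 11.4% of the 9380 windows with 16 to 38 CpG. The E2F core TCCCGC, searched on both strands, was found in 4 windows, those of Mael, Slc25a31, Tex19.1 and Ddx4, against 20.0% of all windows and 43.9% of those with 16 to 38 CpG. The motifs overlapped in no member window. Flat Tdrd1 held the E-box, and Dazl, whose probe sets differed strongly between genotypes, held neither motif. Sequences are shown for Dazl, for Mael and Slc25a31, which carry both motifs, and for Tdrd1 as a flat gene with the E-box; each reads 5′ to 3′ along the gene's strand, and capitals mark the motif letters. The Dazl window is chr17:50293571-50293870 on the minus strand, that of Mael is chr1:166238695-166238994 on the minus strand, that of Slc25a31 is chr3:40708621-40708920 on the plus strand, and that of Tdrd1 is chr19:56825959-56826258 on the plus strand.
Dazl: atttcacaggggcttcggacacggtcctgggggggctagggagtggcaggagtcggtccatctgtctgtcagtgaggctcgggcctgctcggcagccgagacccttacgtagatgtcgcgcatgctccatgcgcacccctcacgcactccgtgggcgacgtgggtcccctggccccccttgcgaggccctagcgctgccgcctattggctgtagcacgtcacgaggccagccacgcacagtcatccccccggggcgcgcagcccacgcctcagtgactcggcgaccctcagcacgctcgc
Mael: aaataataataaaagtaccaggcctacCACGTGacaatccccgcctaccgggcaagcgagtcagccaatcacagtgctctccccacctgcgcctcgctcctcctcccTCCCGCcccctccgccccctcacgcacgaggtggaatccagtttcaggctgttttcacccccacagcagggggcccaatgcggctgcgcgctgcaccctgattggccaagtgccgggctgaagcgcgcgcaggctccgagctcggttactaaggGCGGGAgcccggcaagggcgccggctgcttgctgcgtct
Slc25a31: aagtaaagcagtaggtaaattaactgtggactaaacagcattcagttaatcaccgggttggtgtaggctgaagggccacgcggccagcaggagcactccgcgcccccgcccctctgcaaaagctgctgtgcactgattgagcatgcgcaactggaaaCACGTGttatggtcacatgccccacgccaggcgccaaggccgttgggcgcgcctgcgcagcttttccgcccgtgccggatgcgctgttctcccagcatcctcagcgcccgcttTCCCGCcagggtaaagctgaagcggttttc
Tdrd1: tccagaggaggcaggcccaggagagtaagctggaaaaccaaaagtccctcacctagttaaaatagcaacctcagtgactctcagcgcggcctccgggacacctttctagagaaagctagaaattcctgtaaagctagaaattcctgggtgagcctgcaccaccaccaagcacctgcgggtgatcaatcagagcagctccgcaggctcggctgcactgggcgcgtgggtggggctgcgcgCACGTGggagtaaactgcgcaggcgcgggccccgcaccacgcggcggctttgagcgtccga

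**Figure D1:**
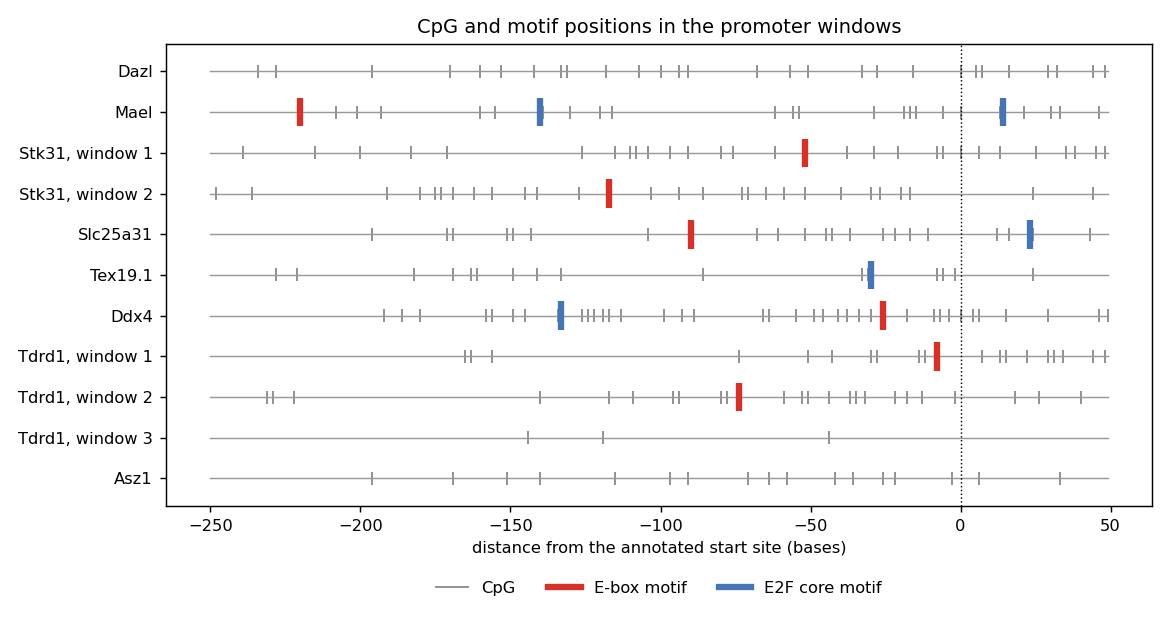
Positions of CpG (thin grey ticks), the E-box CACGTG (red) and the E2F core TCCCGC on either strand (blue) in the 11 promoter windows of 8 genes, by distance in bases from the annotated start site. Windows of Mael, Slc25a31 and Ddx4 hold both motifs, and the Dazl window holds 28 CpG and neither motif.

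The 8 arrays, 1 per sample, fell into 4 genotypes with 2 biological replicates each. Double-KO cells (Jmjd1adelta/delta; Jmjd1bdelta/delta) came from a Jmjd1a-deficient line given a conditional Jmjd1b allele and an inducible MerCreMer recombinase. Jmjd1a-KO cells (Jmjd1adelta/delta; Jmjd1b+/+) are labelled as a Jmjd1a-deficient line, Jmjd1b-KO cells (Jmjd1a+/+; Jmjd1bdelta/delta) as cells from Jmjd1b-deficient mice, although the design text describes lines made by adenoviral Cre, and WT cells (Jmjd1a+/+; Jmjd1b+/+) as cells from WT mice. All samples share a medium with leukemia-inhibiting factor, and a protocol text naming 800 nM OHT, the inducer of the recombinase; an OHT control is not among the labelled samples. Double-KO and Jmjd1a-KO are thus the pair that both come from a Jmjd1a-deficient line, whether the same line is not given. The double-KO label adds the conditional allele and the recombinase, so in this pair loss of Jmjd1b cannot be told apart from these steps. A change against WT or Jmjd1b-KO cannot be told apart from a difference between lines. What separates the replicates is not given, so the p-values measure the spread between these samples, which may be technical.

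The label checks held for both deleted genes. The Kdm3a probe set read 4.60 and 4.77 in double-KO, 5.08 and 4.87 in Jmjd1a-KO, 12.80 and 12.83 in Jmjd1b-KO, and 12.83 and 12.73 in WT. The measured Kdm3b probe set read 7.06 and 7.66 in double-KO, 9.95 and 9.81 in Jmjd1a-KO, 7.07 and 7.10 in Jmjd1b-KO, and 9.91 and 9.96 in WT. All 10 embryonic stem cell markers were measured. Array medians over the measured probe sets lay between 8.80 and 8.91. Over all probe sets, 74.5% of them flat, medians lay between 6.80 and 6.81 and lower quartiles between 6.34 and 6.35, and flat values largely set both. A value near or below 6.35 may thus have no signal behind it, and a change that starts there is uncertain in size. Flat probe sets also stood above that level, with Asz1 at 7.04 and 6.67 and a second Kdm3b probe set at 7.58. Low member values, such as Dazl in Jmjd1a-KO and WT (6.71 to 7.08) and Mael in Jmjd1a-KO (6.49 and 6.88), read no higher than the latter. The sizes of changes from such values are uncertain too. Signal over background was not examined. The SD of the difference between replicates over 11472 measured probe sets was 0.30 in double-KO and 0.35 in Jmjd1a-KO, and smaller in the other groups, with 0.12 in Jmjd1b-KO and 0.16 in WT. The fit takes 1 error for all groups, so these spreads do not enter an SE group by group.

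Dazl transcripts were highest in double-KO, between in Jmjd1b-KO, and lowest in Jmjd1a-KO and WT. Its probe set 1419542_at read 9.60 and 9.55 in double-KO, 6.88 and 6.71 in Jmjd1a-KO, 8.0 and 8.10 in Jmjd1b-KO, and 6.73 and 6.72 in WT. The second probe set, 1449502_at, read 9.15 and 8.99 in double-KO, 6.72 and 6.72 in Jmjd1a-KO, 7.80 and 7.95 in Jmjd1b-KO, and 6.85 and 7.08 in WT. In both, the double-KO arrays lay above all others and the Jmjd1b-KO arrays above Jmjd1a-KO and WT. Jmjd1a-KO and WT overlapped in 1419542_at, and in 1449502_at the Jmjd1a-KO arrays lay below both WT arrays. From the limma fit over all measured probe sets, with Benjamini-Hochberg adjustment, 1419542_at rose by 2.85 ± 0.075 (SE) on the log2 scale in double-KO against WT, 7.21-fold (adjusted p = 4.47e-05). It rose by 2.78 ± 0.075 in double-KO against Jmjd1a-KO (limma adjusted p = 9.77e-05) and by 1.32 ± 0.075, 2.5-fold, in Jmjd1b-KO against WT (limma adjusted p = 0.00212). Between double-KO and Jmjd1b-KO the difference was 1.53 ± 0.075 (limma adjusted p = 0.000154). In Jmjd1a-KO against WT it was 0.072, with a 95% interval from -0.11 to 0.26 (limma adjusted p = 0.525). The second probe set had the same calls, with changes of 2.10 in double-KO and 0.91 in Jmjd1b-KO against WT and of -0.24 in Jmjd1a-KO (95% interval from -0.50 to 0.016). The Dazl gene lies on chromosome 17 from 50279393 to 50293620 in GRCm38.p6. Where in the transcripts the probe sets of any member lie was not examined.

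**Figure D2:**
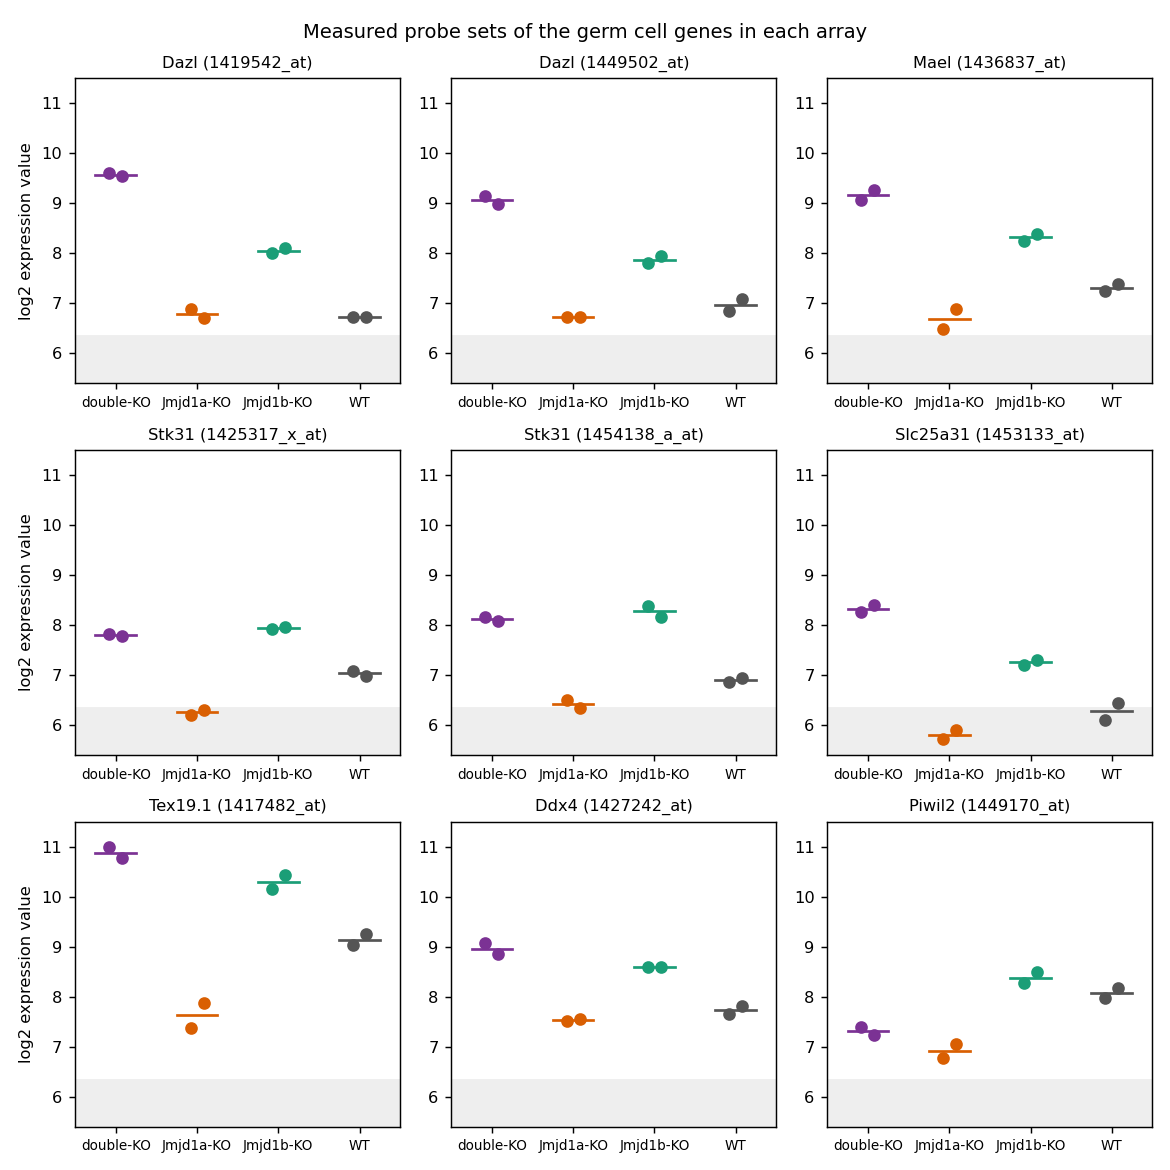
The log2 value of each of the 9 measured probe sets in each array; points are arrays, horizontal lines group means (n = 2), and the grey band ends at the highest lower quartile of an array (6.35). Dazl, Mael, Slc25a31, Tex19.1 and Ddx4 are highest in double-KO, Stk31 is above WT in double-KO and Jmjd1b-KO, and Piwil2 is lowest in the groups without Jmjd1a.

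Mael and Slc25a31 rose in double-KO and Jmjd1b-KO, and Mael also fell in Jmjd1a-KO. Mael (chromosome 1, 166201385 to 166238744) read 9.08 and 9.27 in double-KO, 6.49 and 6.88 in Jmjd1a-KO, 8.25 and 8.38 in Jmjd1b-KO, and 7.24 and 7.39 in WT. No pair of genotypes overlapped in Mael. It rose by 1.86 ± 0.15 in double-KO and by 1.00 ± 0.15 in Jmjd1b-KO against WT, and fell by 0.63 ± 0.15 in Jmjd1a-KO (limma adjusted p = 0.000552, 0.0109 and 0.0385). The step from Jmjd1a-KO was larger: double-KO stood 2.49 ± 0.15 higher, 5.61-fold (limma adjusted p = 0.000631). Slc25a31 (chromosome 3, 40708871 to 40726094) read 8.26 and 8.40 in double-KO, 5.71 and 5.89 in Jmjd1a-KO, 7.20 and 7.31 in Jmjd1b-KO, and 6.10 and 6.44 in WT. Again no pair of genotypes overlapped, although the Jmjd1a-KO arrays and 1 WT array lay below the lower quartile. Slc25a31 rose by 2.06 ± 0.13 in double-KO and 0.98 ± 0.13 in Jmjd1b-KO against WT (limma adjusted p = 0.000316 and 0.00892). Its change of -0.47 ± 0.13 in Jmjd1a-KO missed the threshold (limma adjusted p = 0.0588), and passed with centred arrays (limma adjusted p = 0.0428) and with a replicate block (limma adjusted p = 0.0277).

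Tex19.1, the restrainer of retrotransposons, spanned more over the 8 arrays than any other measured member. The gene lies on chromosome 11 from 121146143 to 121148314. Its probe set read 10.99 and 10.78 in double-KO, 7.39 and 7.88 in Jmjd1a-KO, 10.17 and 10.44 in Jmjd1b-KO, and 9.03 and 9.26 in WT. The groups did not overlap, and the Jmjd1a-KO replicates were farther apart than those of the other genotypes. Tex19.1 rose by 1.74 ± 0.19 in double-KO and 1.16 ± 0.19 in Jmjd1b-KO against WT, and fell by 1.51 ± 0.19 in Jmjd1a-KO (limma adjusted p = 0.00145, 0.0147 and 0.00951). Against Jmjd1a-KO, double-KO stood 3.25 ± 0.19 higher, 9.52-fold (limma adjusted p = 0.000631). The difference between double-KO and Jmjd1b-KO, 0.58 ± 0.19, was at the threshold (limma adjusted p = 0.0497) and did not pass with centred arrays (limma adjusted p = 0.0554) or without either array of double-KO, Jmjd1b-KO or WT. Tex19.2 is a related gene on the array, and whether the probes of either gene also take up the other's transcript was not examined.

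Ddx4, the granule helicase, rose in double-KO and Jmjd1b-KO against WT. It lies on chromosome 13 from 112598333 to 112652633. Values were 9.08 and 8.85 in double-KO, 7.51 and 7.57 in Jmjd1a-KO, 8.59 and 8.6 in Jmjd1b-KO, and 7.66 and 7.82 in WT. No arrays of different genotypes overlapped. Ddx4 rose by 1.22 ± 0.094 in double-KO and 0.85 ± 0.094 in Jmjd1b-KO against WT (limma adjusted p = 0.000516 and 0.00627), and by 1.42 ± 0.094 in double-KO against Jmjd1a-KO (limma adjusted p = 0.000824). Its change of -0.20 in Jmjd1a-KO against WT had a 95% interval from -0.43 to 0.033 (limma adjusted p = 0.185).

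Stk31 rose in double-KO and Jmjd1b-KO against WT and fell in Jmjd1a-KO. The gene lies on chromosome 6 from 49395506 to 49469506. Its probe set 1454138_a_at read 8.17 and 8.07 in double-KO, 6.51 and 6.34 in Jmjd1a-KO, 8.39 and 8.17 in Jmjd1b-KO, and 6.86 and 6.93 in WT. Probe set 1425317_x_at read 7.82 and 7.79 in double-KO, 6.21 and 6.31 in Jmjd1a-KO, 7.93 and 7.95 in Jmjd1b-KO, and 7.08 and 6.98 in WT. Double-KO and Jmjd1b-KO lay together above WT, and Jmjd1a-KO lay below it, near the lower quartile. Against WT, 1454138_a_at rose by 1.22 ± 0.10 in double-KO and 1.38 ± 0.10 in Jmjd1b-KO and fell by 0.47 ± 0.10 in Jmjd1a-KO (limma adjusted p = 0.000623, 0.00303 and 0.0308). For 1425317_x_at the changes were 0.77 ± 0.064 in double-KO, 0.91 ± 0.064 in Jmjd1b-KO and -0.78 ± 0.064 in Jmjd1a-KO, each past the threshold. The difference between double-KO and Jmjd1b-KO was -0.16 (95% interval from -0.41 to 0.091; limma adjusted p = 0.241) in that probe set and -0.14 (95% interval from -0.29 to 0.021; limma adjusted p = 0.125) in 1425317_x_at. The suffix of 1425317_x_at marks probes that can match other transcripts as well.

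Piwil2 ran a different course from the other measured members. It lies on chromosome 14 from 70372477 to 70436898, and read 7.40 and 7.23 in double-KO, 6.77 and 7.07 in Jmjd1a-KO, 8.27 and 8.5 in Jmjd1b-KO, and 7.98 and 8.17 in WT. Both groups without Jmjd1a lay below both groups that have it. Piwil2 fell by 0.76 ± 0.14 in double-KO and by 1.16 ± 0.14 in Jmjd1a-KO against WT (limma adjusted p = 0.00752 and 0.00849); with flat probe sets included neither passed (limma adjusted p = 0.0769 and 0.0752). Its change was 0.31 in Jmjd1b-KO against WT (95% interval from -0.033 to 0.66; limma adjusted p = 0.153) and 0.40 in double-KO against Jmjd1a-KO (95% interval from 0.050 to 0.74; limma adjusted p = 0.084). Of the 7 measured genes, Piwil2 was the 1 that did not rise in double-KO against WT.

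**Figure D3:**
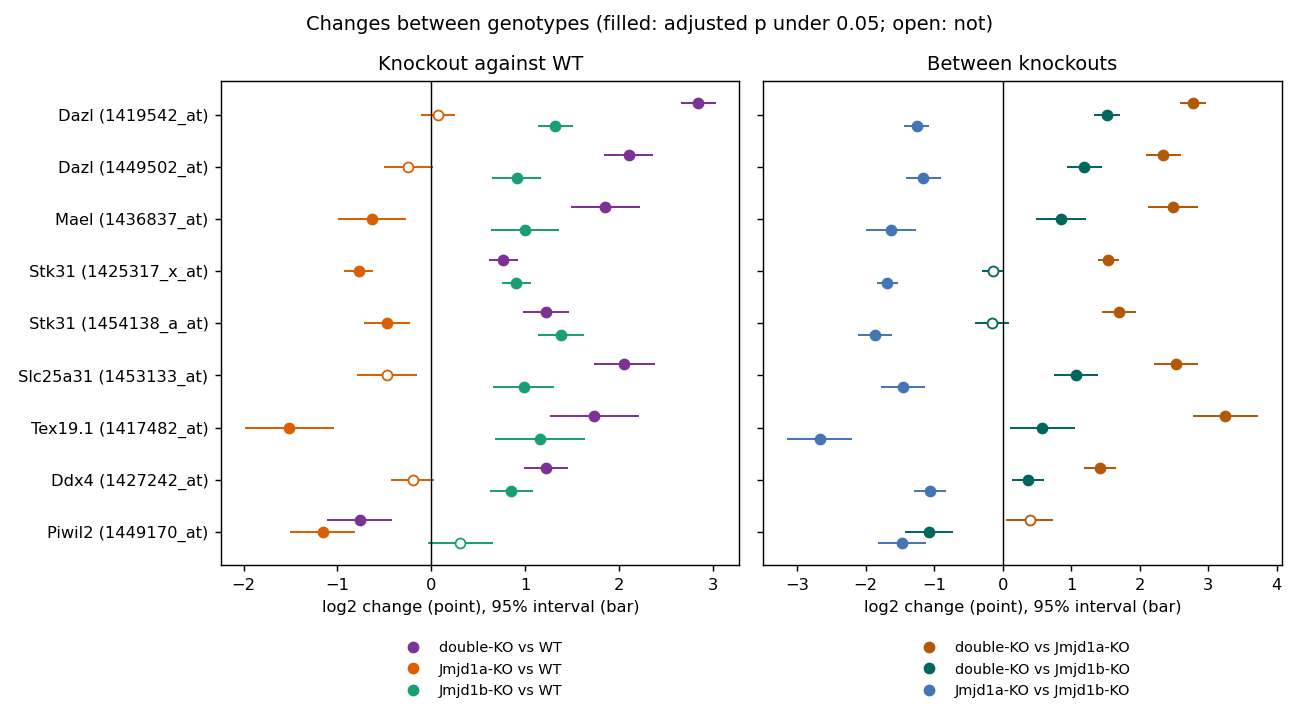
The log2 change of each measured probe set in 6 comparisons with its 95% interval from the limma fit; filled points passed the adjusted p threshold and open points did not. Left, double-KO, Jmjd1a-KO and Jmjd1b-KO against WT; right, double-KO against each single knockout, and Jmjd1a-KO against Jmjd1b-KO, where all 9 points lie below 0.

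Double-KO against WT sets cells without either demethylase beside cells with both. Of the 12 probe sets, 9 were measured, 8 rose and Piwil2 fell; over all 11472 measured probe sets 27.0% rose and 19.6% fell. The median change of the 9 was 1.74, against 0.018 over all measured probe sets. In double-KO against Jmjd1a-KO, both of a Jmjd1a-deficient line, 8 of the 9 rose, all but Piwil2, against 17.0% of all measured probe sets, and the median change was 2.35. The 8 belong to 6 genes, since Dazl and Stk31 have 2 probe sets each. Every array of double-KO lay above every array of Jmjd1a-KO in all 9, which held for 34.0% of all measured probe sets.

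For Jmjd1b-KO against WT, the same 8 probe sets rose, against 12.3% of all measured probe sets, with a median change of 0.98 over the 9. Leaving out WT replicate 1 took this count to 3, Jmjd1b-KO replicate 1 to 4 and Jmjd1b-KO replicate 2 to 3, and fitting every probe set of the table, flat ones included, took it to 4. Jmjd1a-KO cells went the other way for part of the genes. In Jmjd1a-KO against WT, 5 probe sets of 4 genes (Tex19.1, Piwil2, Mael and Stk31) fell and none rose, against 7.88% lower and 10.1% higher over all measured probe sets. This count was 1 with flat probe sets included and without WT replicate 2, 2 with only the compared groups fitted and without WT replicate 1, and 3 with array weights; Stk31 1425317_x_at passed in each of these.

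The single knockouts were also set against each other, since a gene that passes in one and not in another is not thereby shown to differ. In Jmjd1a-KO against Jmjd1b-KO all 9 measured probe sets were lower, by 1.05 (Ddx4) to 2.67 (Tex19.1) on the log2 scale, against 12.7% of all measured probe sets. Of the 9, 4 both rose in Jmjd1b-KO and fell in Jmjd1a-KO against WT, Tex19.1, Mael and the pair for Stk31; 0.907% of all measured probe sets did so, and both comparisons share the WT arrays. Double-KO against Jmjd1b-KO gave a mixed picture: Dazl, Mael, Slc25a31, Tex19.1 and Ddx4 rose (6 probe sets, against 28.3% of all), Piwil2 fell by 1.07 ± 0.14 (against 21.8% of all), and the Stk31 pair did not pass. That count of 7 was 5 without either Jmjd1b-KO array or double-KO replicate 1, and 4 with flat probe sets included.

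The change with loss of Jmjd1b could be compared with and without Jmjd1a, in comparisons that share no array. Jmjd1b-KO and WT enter this contrast, so its result cannot be told apart from a difference between lines. Of the 9 probe sets 8 rose both in double-KO against Jmjd1a-KO and in Jmjd1b-KO against WT, while 3.15% of all measured probe sets rose in both. Across all 11472 measured probe sets the changes hardly correlated (Pearson r = 0.048 across probe sets, which are not independent). The gain was larger without Jmjd1a for 7 probe sets, as the interaction on the log2 scale shows. It was 2.09 ± 0.27 for Tex19.1, 1.54 ± 0.19 for Slc25a31, 1.49 ± 0.21 for Mael, 1.45 ± 0.11 and 1.44 ± 0.15 for the Dazl probe sets, 0.64 ± 0.090 for Stk31 1425317_x_at and 0.57 ± 0.13 for Ddx4 (limma adjusted p from 0.00244 to 0.0302). Over all measured probe sets 13.9% had a positive interaction past the threshold; the 2862 interactions called in either direction became 915 to 3977 with 1 array left out. With flat probe sets included, 3 member probe sets passed, both of Dazl and Stk31 1425317_x_at. For Stk31 1454138_a_at it was 0.31 (95% interval from -0.038 to 0.67) and for Piwil2 0.083 (95% interval from -0.40 to 0.57), neither past the threshold. A lower mean in Jmjd1a-KO than in WT enters this difference for all of these probe sets but Dazl 1419542_at, by 0.20 for Ddx4 to 1.51 for Tex19.1.

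**Figure D4:**
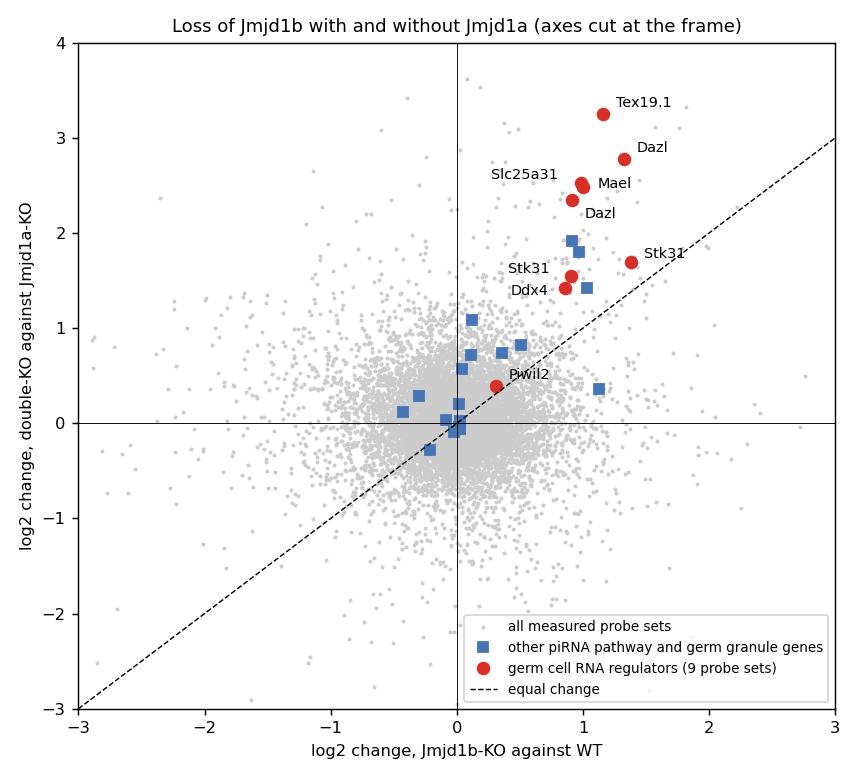
Log2 change in Jmjd1b-KO against WT (horizontal) and in double-KO against Jmjd1a-KO (vertical) for all measured probe sets (grey, 29 outside the frame), the 9 probe sets of the germ cell genes (red) and the other piRNA pathway and germ granule genes (blue). All 9 red points lie right of and above 0, with Tex19.1 at 1.16 and 3.25 and Piwil2 at 0.31 and 0.40.

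Dazl's nearest companions on the array were found by Pearson correlation of 1419542_at with 2778 probe sets spanning at least 1, over the 8 arrays, which share their processing. They were 1700018B24Rik (r = 0.998), 8030474K03Rik (r = 0.995), Gtsf1 (r = 0.995), Akr1e1 (r = 0.993) and Gsn (r = 0.992). Gtsf1 encodes a small zinc finger protein of the piRNA pathway, Akr1e1 an aldo-keto reductase and Gsn the actin-severing protein gelsolin. Gtsf1 read 9.17 and 9.07 in double-KO, 7.35 and 7.30 in Jmjd1a-KO, 8.11 and 8.01 in Jmjd1b-KO, and 7.08 and 7.11 in WT. Of the other members Slc25a31 came nearest to Dazl (r = 0.970, rank 18 of 2144 genes), then Ddx4 (r = 0.949) and Mael (r = 0.944). Tex19.1 (r = 0.843, rank 241) and Stk31 (r = 0.821 and 0.761, rank 287) were less like it, and Piwil2 had r = -0.051.

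Beyond the members, a list of 34 other gene symbols of the piRNA pathway and germ granule had 29 on the array and 18 measured. In double-KO against Jmjd1a-KO 8 of the 18 rose and 0 fell, against 17.0% and 11.9% of all measured probe sets, with a median change of 0.32 against 0.018 over all measured probe sets. Gpat2, a mitochondrial acyltransferase needed for piRNAs, rose by 1.92 ± 0.14, Gtsf1 by 1.80 ± 0.064, the Tudor-domain gene Rnf17 by 1.42 ± 0.13 and the Tudor-domain gene Tdrd5 by 1.09 ± 0.28. In double-KO against WT 7 rose and 3 fell, against 27.0% and 19.6% of all, with a median of 0.10. Here Gtsf1 rose by 2.03, Tdrd5 by 1.69 and Gpat2 by 1.64, and Tdrd12 fell by 1.61, Ddx39a by 0.65 and Piwil4 by 0.43. In Jmjd1b-KO against WT 5 rose, Tdrd12 by 1.13 ± 0.093, Rnf17 by 1.03 ± 0.13, Gtsf1 by 0.97 ± 0.064, Gpat2 by 0.91 ± 0.14 and Mov10 by 0.51 ± 0.13, and Dnd1 fell by 0.43 ± 0.11, with a median of 0.033, against 12.3% higher and 11.6% lower over all. In Jmjd1a-KO against WT 0 rose and Tdrd12 (-1.97 ± 0.093) and the PIWI gene Piwil4 (-0.34 ± 0.065) fell, with a median of -0.17, against 10.1% higher and 7.88% lower over all. Tdrd12, a Tudor-domain partner of PIWI proteins, read 7.70 and 7.91 in double-KO, 7.36 and 7.53 in Jmjd1a-KO, 10.53 and 10.56 in Jmjd1b-KO, and 9.43 and 9.40 in WT. Like Piwil2, it was lower in both groups without Jmjd1a than in the groups that have it.

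A list of 24 other germline genes, mostly of meiosis, had 20 on the array and 15 measured. In Jmjd1b-KO against WT 7 of the 15 rose and 0 fell, against 12.3% and 11.6% of all measured probe sets. In Jmjd1a-KO against WT none rose and 4 fell (Stra8, Sohlh2, Hormad1 and Syce1), against 10.1% and 7.88% of all. Hormad1, a protein of meiotic chromosome axes, rose by 1.90 ± 0.14 in Jmjd1b-KO and fell by 1.40 ± 0.14 in Jmjd1a-KO. Sycp3, of the synaptonemal complex, rose by 1.37 ± 0.15 in Jmjd1b-KO. In double-KO against Jmjd1a-KO 9 rose, among them the meiotic cohesin gene Stag3 (1.72) and Sycp1 (1.33), and Stra8, a retinoic acid responsive gene of meiotic entry, fell by 2.08 ± 0.35, against 17.0% higher and 11.9% lower over all. In double-KO against WT 5 rose (Stag3, Sycp1, Sycp3, Brdt and Taf7l) and 3 fell (Stra8, Sohlh2 and Hormad1), with a median of 0.013. Over all, 27.0% rose and 19.6% fell. Brdt read 6.40 and 6.52 in double-KO and 6.12 and 6.11 in WT, and Sycp1 read 6.43 and 6.33 in WT. These values lie near or below the lower quartile, so the sizes of both changes are uncertain. Sohlh2, a transcription factor of germ cells, fell by 1.82 in Jmjd1a-KO and by 1.6 in double-KO against WT.

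Genes that establish or keep promoter silencing were listed as well, 31 genes with 22 measured, the deleted genes among them. In double-KO against WT 6 of the 22 rose, close to the 27.0% of all measured probe sets, and 9 fell, against 19.6%, with a median of -0.31. The 9 include Kdm3a and Kdm3b, whose fall the deletions fixed, as they did that of Kdm3b against Jmjd1a-KO. In double-KO against Jmjd1a-KO 5 rose (Prdm14, E2f6, Rnf2, Kdm5c and Uhrf2) and 5 fell (Kdm3b, Dnmt3a, Tet1, Tfdp1 and Ehmt2), against 17.0% and 11.9% of all. E2f6, a repressor that binds the E2F core and silences germline genes, rose by 0.66 ± 0.10 in that comparison. Dnmt3a, a de novo DNA methyltransferase, fell by 3.32 ± 0.28 in double-KO and 1.13 ± 0.28 in Jmjd1a-KO against WT (limma adjusted p = 0.000662 and 0.0451), and its change in Jmjd1b-KO was -0.023. Its values were 8.15 and 8.82 in double-KO, 10.34 and 11.02 in Jmjd1a-KO, 11.73 and 11.83 in Jmjd1b-KO, and 11.83 and 11.78 in WT. Dnmt3l, the cofactor of the de novo enzymes, fell by 2.10 ± 0.30 in double-KO and 1.56 ± 0.30 in Jmjd1a-KO and rose by 1.87 ± 0.30 in Jmjd1b-KO against WT (limma adjusted p = 0.00323, 0.0242 and 0.0134). Ehmt2, a writer of H3K9 methylation, rose by 1.08 ± 0.19 in Jmjd1b-KO. Neither DNA methylation nor histone marks were measured, and the part of these genes in the members' changes was not tested.

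Markers of other cell types moved with the genotypes too. Of 12 fibroblast markers, 8 were measured, and their summed linear signal per array ranged from 3373 to 5402 in double-KO, 2146 to 2706 in Jmjd1a-KO, 874 to 976 in Jmjd1b-KO and 8090.3 to 9602 in WT. Col6a1, Lox and Dcn were flat at 6.48 to 6.80 and Fbn1 had no probe set with its symbol alone. Of the 8, 7 fell and Thy1 rose in Jmjd1b-KO against WT, where 11.6% of all measured probe sets fell and 12.3% rose, and 7 fell in Jmjd1a-KO, against 7.88% of all. In double-KO against WT 0 rose and 5 fell, against 27.0% and 19.6% of all. The higher sum in double-KO than in Jmjd1a-KO hides opposite moves. There 3 rose, among them Acta2 (1.73) and Tagln (1.44), and 3 fell, among them Col1a1 (-1.27) and Col1a2 (-1.26), against 17.0% and 11.9% of all. The summed signal of the 10 embryonic stem cell markers was 43278 to 61915 in double-KO, 56738 to 57154 in Jmjd1a-KO, 42812 to 42979 in Jmjd1b-KO and 42001 to 42695 in WT. The sum hides unlike moves. In double-KO against WT 4 rose (Nanog, Zfp42, Sox2 and Tdgf1) and 0 fell, against 27.0% and 19.6% of all. In double-KO against Jmjd1a-KO 0 rose and Esrrb fell by 2.52 ± 0.56, against 17.0% and 11.9% of all. Its double-KO arrays were far apart, at 7.68 and 9.58. Of 10 primordial germ cell markers, 8 were measured, with a sum of 9033 to 9839 in double-KO, 8875 to 9165 in Jmjd1a-KO, 7809 to 7817 in Jmjd1b-KO and 5919 to 6520.2 in WT; Itgb3 was flat at 6.67 and Nanos3 had no probe set with its symbol alone. Of these 8, 6 rose in double-KO against WT, among them Tfap2c (3.89), Prdm1 (1.72) and Sox17 (1.07), and Ifitm3 fell by 2.72. Over all, 27.0% rose and 19.6% fell. Sox17 is also among the primitive endoderm markers. It read 7.27 and 6.72 in double-KO and 5.93 and 5.90 in WT, the latter below the lower quartile, so its change is uncertain in size. The 5 measured trophoblast markers summed to 2814 to 3026 in double-KO, 963 to 982 in Jmjd1a-KO, 1763 to 2053 in Jmjd1b-KO and 843 to 975 in WT, with Cdx2, Elf5 and Hand1 flat. Of these 5, 4 rose in double-KO against WT, 4 in Jmjd1b-KO against WT and 3 in double-KO against Jmjd1a-KO, against 27.0%, 12.3% and 17.0% of all. Those that rose against WT were the keratin genes Krt8, Krt18 and Krt19 and Eomes, and those that rose against Jmjd1a-KO were the 3 keratin genes alone. Ascl2 passed in none of these comparisons, so the counts rest mostly on keratins. The 4 measured primitive endoderm markers summed to 686 to 929 in double-KO, 627 to 687 in Jmjd1a-KO, 324 to 326 in Jmjd1b-KO and 450.0 to 497 in WT, with Gata4, Sox7, Foxa2 and Pdgfra flat. Of these 4, 3 rose in double-KO against WT (Sox17, Lama1 and Gata6) and 0 fell, against 27.0% and 19.6% of all. The part of any of these cell types in the members' changes was not tested, and in such bulk samples more cells of a type and more RNA per cell cannot be told apart.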

How the data were processed

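The authors deposited log2 values, 1 per probe set and array, made in R 2.7.2 per the submitters' processing notes, with background correction and normalization not given in the sources used here. That they are on a log2 scale was taken from their range. Of 45101 probe sets, 33599 (74.5%) spanned less than 0.01 over the 8 arrays and are called flat. Probe sets were named from the platform's gene table: 34958 had 1 symbol, 932 several and 9211 none. A model with 4 group means was fitted by lmFit and eBayes of limma 3.58.1, under R 4.3.3, to the 11472 measured probe sets, array controls left out, with 4 residual and 1.89 prior degrees of freedom. Two-sided p-values were adjusted over all of them by the Benjamini-Hochberg method, and 0.05 was the threshold for "rose" and "fell". The labels do not say that a replicate number pairs arrays, so the main fit has no replicate block. Deviations of the same number correlated between -0.044 and 0.24, which does not settle whether arrays are paired. An exact test of 2 arrays against 2 cannot go below p = 0.333, so the model across probe sets is the test given. The highest correlation between arrays was 0.997 and no arrays were identical. The script was tested on simulated data. Members, lists and settings were chosen with earlier results of these data known. Every measured member is named; of the other lists, up to 4 genes per comparison with the largest change past the threshold, each by its measured probe set with the highest mean. Genes of shorter counts outside this rule (Brdt, Ddx39a, Dnd1, E2f6, Ehmt2, Hormad1, Kdm5c, Mov10, Piwil4, Prdm14, Rnf2, Sycp3, Taf7l, Thy1 and Uhrf2 in some comparisons) were named after their values were seen. Alternatives were quantile normalization, centring, flat probe sets included, a filter on low means, robust eBayes with trend, array weights, a replicate block, a fit to only the groups compared, and leaving out each array. The number of arrays limits the precision. Figures were drawn with matplotlib 3.10.9.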

Additional observations from a re-analysis of the deposited data

Results flagged for a closer look

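The difference between double-KO and Jmjd1a-KO was unlike that between Jmjd1b-KO and WT in 7 of the 9 measured probe sets, by the interaction term of the limma fit. Jmjd1b-KO and WT enter this term, so it cannot be told apart from a difference between lines. The interaction was 2.09 for Tex19.1, 1.54 for Slc25a31, 1.49 for Mael, 1.45 for Dazl 1419542_at, 1.44 for Dazl 1449502_at, 0.64 for Stk31 1425317_x_at and 0.57 for Ddx4. Each was positive: double-KO exceeded Jmjd1a-KO by more than Jmjd1b-KO exceeded WT. With flat probe sets included, both Dazl probe sets and Stk31 1425317_x_at passed, and 4 did not, with a limma adjusted p of 0.0704 for Tex19.1, 0.0534 for Slc25a31, 0.0768 for Mael and 0.163 for Ddx4. Ddx4 did not pass with a replicate block either (limma adjusted p = 0.0548). Slc25a31 has values near or below the lower quartile in Jmjd1a-KO and WT, and Stk31 1425317_x_at has values below it in Jmjd1a-KO. Dazl in Jmjd1a-KO and WT, and Mael in Jmjd1a-KO, read no higher than some flat probe sets. The sizes of the interactions of all these genes are therefore uncertain.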

How the results depend on the processing

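The direction and side of the threshold of each measured probe set in each comparison held in 889 of 964 combinations with an alternative; 64 lost a call, 6 gained 1 and 5 changed sign, of which none had been called. The sign changed only when 1 array was left out: Dazl 1419542_at in Jmjd1a-KO against WT (-0.011 to 0.15) and the interaction of Piwil2 (-0.064 to 0.23). With flat probe sets included, member calls were 1 in Jmjd1a-KO against WT, 4 in Jmjd1b-KO against WT, 8 in double-KO against WT, 4 in double-KO against Jmjd1b-KO and 3 in the interaction. Without the probe sets of lowest mean, 4 member probe sets were left to fit. Of these 2 were called in Jmjd1a-KO against WT and 4 in each other comparison and the interaction. In Jmjd1a-KO against WT there were 2 calls with only the groups compared and 3 with array weights. Leaving out 1 array, with the lone array of its group assumed to vary like the others, gave 1 to 5 calls in Jmjd1a-KO against WT, 3 to 8 in Jmjd1b-KO against WT, 9 in double-KO against WT, 8 to 9 against Jmjd1a-KO, 5 to 7 against Jmjd1b-KO, 9 in Jmjd1a-KO against Jmjd1b-KO and 6 to 7 in the interaction. The replicate block gave 6, 8, 9, 8, 7, 9 and 6 calls in that order. The interaction could not be fitted with only the groups compared.

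Counts over all measured probe sets moved more. A fit with flat ones included made 791 calls in Jmjd1a-KO against WT (2057 without them), 819 in Jmjd1b-KO against WT (2745), 3226 in double-KO against WT (5341), 1291 against Jmjd1a-KO (3322), 3813 against Jmjd1b-KO (5752), 1357 in Jmjd1a-KO against Jmjd1b-KO (3197) and 1248 in the interaction (2862). With only the groups compared there were 405, 5071, 4991, 550, 5954 and 2120, and with array weights 1279, 5529, 5636, 1620, 6318 and 2612. Leaving out 1 array gave 186 to 3686, 106 to 3811, 3229 to 6081, 1772 to 3443, 3355 to 6507 and 913 to 3506, and 915 to 3977 in the interaction. Centring took the share of higher calls to 45.1% in Jmjd1a-KO against WT, where it was 56.1%, to 43.3% in double-KO against WT (57.9%) and to 46.0% in double-KO against Jmjd1a-KO (58.9%); it shifted the members' changes by at most 0.093. The cause of these differences was not tested. Signal over background was not examined and limits what low values show.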
